A study of Mus musculus with 4 samples.

Results

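Homeobox developmental factors that lie outside the Hox clusters were described by the CTCF and RAD21 peaks called around their genes. The 44 genes were taken from a list of names, and all 44 were found among the 21938 protein-coding genes of the GENCODE annotation of mm10. They comprised 12 genes of the TALE class (Meis, Pbx and Irx), 8 Dlx and Msx genes, 10 LIM genes (Lhx and Lmx1), 5 genes of the sine oculis family (Six2 to Six6), 6 paired-like genes (Alx, Prrx, Shox2 and Pitx3) and 3 En and Gbx genes. None lay in a Hox cluster: the nearest, Dlx4, was 1048 kb from a Hox gene. Of the 44, 16 are known for expression or function in the limb and were singled out: Meis1, Meis2, Irx3, Irx5, Dlx5, Dlx6, Msx1, Msx2, Lhx2, Lhx9, Lmx1b, En1, Shox2, Prrx1, Prrx2 and Alx4. Expression was not measured in these samples. The remaining genes, Pbx genes among them, are thus not a set shown to lack limb expression.

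CTCF and RAD21, a subunit of cohesin, were profiled by ChIPmentation in whole limbs of mouse embryos at E12.5. The embryos, of strain B6CBAF1, were TgN(38-40)/Wt; del(CS38-40)-/-: they were hemizygous for a transgene that carries region CS38-40 of the HoxD locus, integrated on chromosome 10, and lacked both native copies of that region on chromosome 2. Each antibody had 2 biological replicates, all of this genotype. They were read beside 1 RAD21 ChIP-seq library that an earlier study had made from wild-type whole limbs at E12.5. No CTCF list of wild-type limbs was used here, so no genotype could be compared for CTCF. The lists held 23829 and 26264 CTCF peaks in replicates 1 and 2, 4102 and 14787 RAD21 peaks in replicates 1 and 2, and 20874 wild-type RAD21 peaks. Peaks of replicates 1 and 2 that shared at least 1 bp were merged into 28789 CTCF sites and 14955 RAD21 sites on the assembled chromosomes. RAD21 replicate 1 was thus the sparsest list, and values that rest on RAD21 were read with this in view. A site bound in few cells of the limb and a site bound weakly in many cannot be told apart in such lists, and a site that is absent from a list was below the authors' threshold, not shown to be unbound.

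CTCF is a zinc finger protein that binds a long, directional DNA motif. Cohesin is a ring that holds DNA loops, and the ends of such loops often carry CTCF motifs that face inward. Homeobox factors of these families pattern the embryo: Meis and Pbx proteins are cofactors of Hox proteins and mark the proximal limb, Lmx1b specifies the dorsal limb, En1 acts in the ventral limb ectoderm, Shox2 is needed for the proximal limb skeleton, and Dlx and Msx factors act in ectoderm and skeletal precursors. Many of these genes are controlled by enhancers spread over large flanking regions, which is why the position of the nearest CTCF and cohesin sites on each side was recorded.

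The sequences that carry the orientation of the sites are shown first. A motif of 19 bp was learned from the CTCF peaks themselves, with the consensus nnGCCACnAGGGGGCGCnn, and searched on both strands within 50 bp of each summit. At a score reached by 5% of flanking sequences, 60.6% of all CTCF sites held it. Each line gives the gene, the side seen from the gene's own direction of transcription, the place of the motif in mm10 and its strand, and then the motif in capitals with 10 bases on either side, read 5′ to 3′ on the motif's strand. The first 5 lines are the sites of Lmx1b, the gene with the most CTCF sites. The next 6 are the motif-bearing sites that flank Meis1, Meis2 and Irx3 from both sides. The others are the neighbouring sites of Prrx2 and the site between Dlx6 and Dlx5.
Lmx1b downstream, outer site, chr2:33558440-33558458, minus strand: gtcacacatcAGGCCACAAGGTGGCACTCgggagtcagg
Lmx1b downstream, inner site, chr2:33559941-33559959, plus strand: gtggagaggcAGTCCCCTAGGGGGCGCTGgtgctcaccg
Lmx1b intron, chr2:33569457-33569475, plus strand: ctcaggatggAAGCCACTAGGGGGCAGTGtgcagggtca
Lmx1b intron, chr2:33600697-33600715, minus strand: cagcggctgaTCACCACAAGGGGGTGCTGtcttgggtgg
Lmx1b upstream, chr2:33643277-33643295, minus strand: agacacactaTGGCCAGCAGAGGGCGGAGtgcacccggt
Meis1 downstream, chr11:18151965-18151983, plus strand: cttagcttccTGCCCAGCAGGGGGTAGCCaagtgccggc
Meis1 upstream, chr11:19761249-19761267, minus strand: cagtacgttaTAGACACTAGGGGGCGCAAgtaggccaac
Meis2 downstream, chr2:114622472-114622490, plus strand: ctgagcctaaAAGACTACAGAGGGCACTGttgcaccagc
Meis2 upstream, chr2:116101424-116101442, minus strand: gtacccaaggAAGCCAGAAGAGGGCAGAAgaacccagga
Irx3 downstream, chr8:91797707-91797725, plus strand: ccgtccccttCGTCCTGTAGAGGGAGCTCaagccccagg
Irx3 upstream, chr8:92063520-92063538, minus strand: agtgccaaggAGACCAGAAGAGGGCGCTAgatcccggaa
Prrx2 downstream, inner site, chr2:30885210-30885228, plus strand: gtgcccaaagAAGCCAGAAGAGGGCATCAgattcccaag
Prrx2 downstream, outer site, chr2:30885576-30885594, plus strand: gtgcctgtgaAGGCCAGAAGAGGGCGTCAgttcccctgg
Dlx6 downstream, chr6:6870555-6870573, minus strand: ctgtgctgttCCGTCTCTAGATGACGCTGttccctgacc

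The letters CCAGAAGAGGGC recur within the printed motifs of Meis2, Irx3 and Prrx2. Counted over letters 4 to 15 of the motif, they were the commonest form at the 86 distinct motif-bearing sites in or flanking the 44 genes (9 sites, 10.5%). They were also the commonest form over all 17454 motif-bearing sites, where 7.67% held them.

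A CTCF site lay within 5 kb of the gene body of 27 of the 44 genes (61.4%), against 51.9% of all protein-coding genes and 48.2% of those within a factor of 1.5 of each gene's length. In the limb group these were 11 of 16 genes, and 16 of 28 in the rest, where the shares for genes of similar length were 53.2% and 45.3%. Replicate 1 had a CTCF peak at 24 of the 44 and replicate 2 at 21, against 43.3% and 45.9% of genes of similar length, so the share of 47.7% in replicate 2 was close to that of other genes. The excess over all genes shrank or turned under stricter settings. With only peaks of -log10 q of at least 5, 22 of 44 genes (50%) had a CTCF site, against 47.1% of all genes, and with at least 10 there were 12 (27.3%), against 34.8%. With a peak required in both replicates 18 genes (40.9%) had one, against 44.1%, and with a window of 1 kb 13 (29.5%), against 42.0%. Under both settings the share was below that of all genes. With a window of 20 kb it was above, at 35 genes (79.5%) against 70.0%. The 44 genes had a median length of 9327.5 bp, against 17425 bp over all genes. Shares for genes of similar length were not computed for these settings, so the part of length was not tested. No test was made of these shares, since genes share sites and are not replicates.

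Cohesin was listed near more of these genes in the wild-type library than in the transgenic ones. A wild-type RAD21 peak lay within 5 kb of 25 genes (56.8%), against 41.1% of all genes and 37.1% of genes of similar length. It was at 22 (50%) with -log10 q of at least 10, against 37.1% of all genes. With a window of 1 kb the 15 genes (34.1%) stood close to the 32.6% of all genes. A RAD21 site of the transgenic limbs was near 17 genes (38.6%), against 32.7% of all genes and 29.0% of similar length. Of these, RAD21 replicate 1 listed 4 (Dlx3, Dlx5, Lmx1b and Pitx3; 9.09%, against 9.91% of all genes) and replicate 2 listed all 17. A RAD21 site in both replicates was near the same number (9.09%, against 9.47% of all genes). One of -log10 q of at least 10 was near 6 genes (13.6%, against 15.9%), and one within 1 kb near 7 (15.9%, against 25.4%). The excess over all genes was thus lost or turned, while shares for genes of similar length were not computed for these settings. A CTCF site that also carried RAD21 of the transgenic limbs was near 16 genes (36.4%), against 30.7% of all genes. This too was lost or turned, with 25% against 25.3% at -log10 q of at least 5, 9.09% against 13.2% at 10 and against 9.13% in both replicates, and 13.6% against 23.6% within 1 kb. Of the 16 limb genes, 7 had transgenic RAD21 and 10 had wild-type RAD21, against 33.7% and 42.2% of genes of similar length. In the other 28 genes the counts were 10 and 15, against 26.3% and 34.2%.

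**Figure D1:**
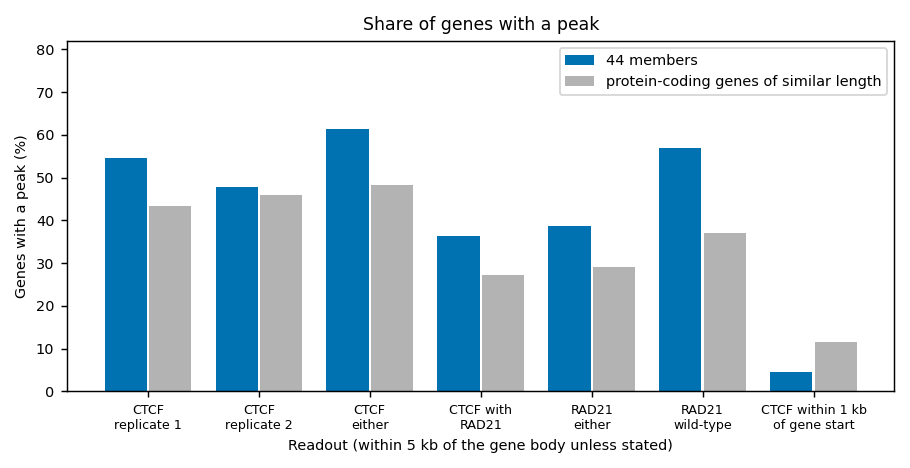
Percent of genes with a peak (vertical axis) for 7 readouts, in the 44 homeobox genes (blue) and in protein-coding genes of similar length (grey). The blue bars are the taller ones for every readout within 5 kb, by the least for CTCF replicate 2 (47.7% against 45.9%), and the shorter one at the gene start (4.55% against 11.6%).

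At the gene start itself CTCF was scarce. A CTCF site lay within 1 kb of the start of 2 of the 44 genes (4.55%), against 12% of all protein-coding genes and 11.6% of those of similar length. They were Meis3, with a peak 207 bp upstream (fold enrichment 5.59), and Irx6, with a peak 633 bp upstream (6.76). Both were listed in CTCF replicate 1 and not in replicate 2, and neither held the motif. None of the 16 limb genes had a CTCF site within 1 kb of its start.

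In all, 36 distinct CTCF sites lay within 5 kb of the 44 genes. A peak was called in both replicates at 23 of them (63.9%, against 73.2% of the 18589 CTCF sites within 5 kb of any protein-coding gene), in replicate 1 alone at 6 and in replicate 2 alone at 7. The motif was found at 2 of the 6 and at 5 of the 7. The motif was found at 19 of the 36 (52.8%, against 60.4% of sites near any gene), RAD21 of the transgenic limbs at 17 (47.2% against 44.03%) and wild-type RAD21 at 24 (66.7% against 56.6%). The median percentile of fold within the list was 29.0 in replicate 1 and 56.9 in replicate 2 (0 is the weakest peak of the list and 100 the strongest), while peaks near any gene had medians of 49.0 and 50.2. Of the 36 sites, 11 were inside the body of a listed gene, 20 were intergenic and 7 lay in an exon of some gene. Lmx1b had 5 sites, 5 genes had 2, 21 had 1 and 17 had none.

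**Figure D2:**
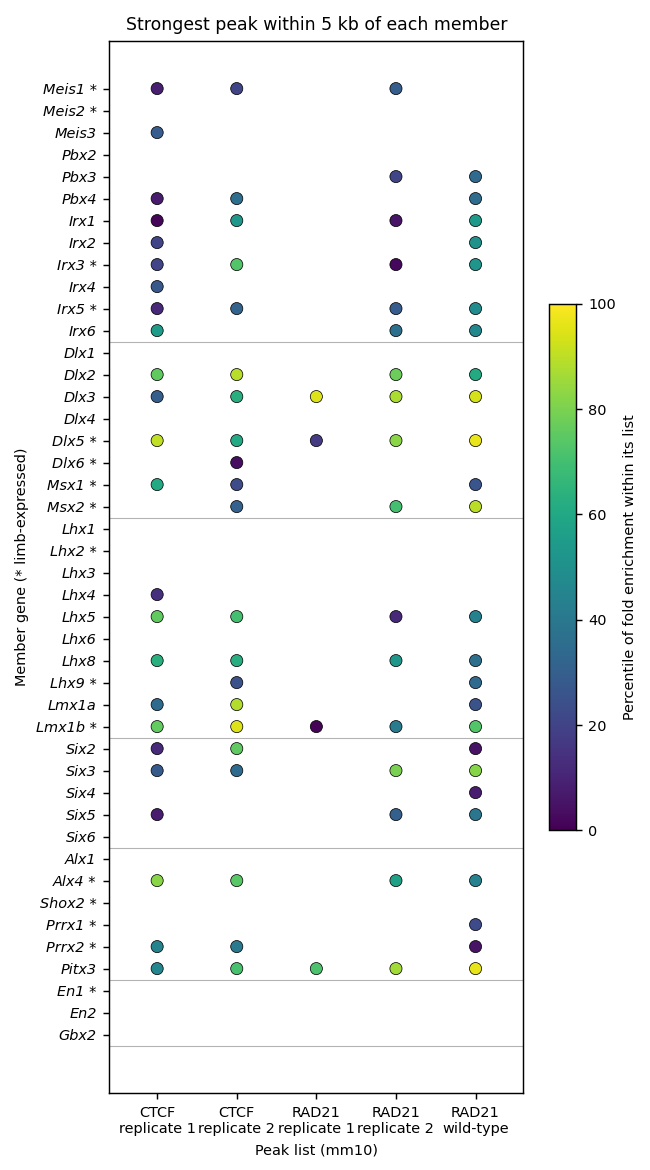
Strongest peak within 5 kb of each of the 44 genes (rows, limb-expressed genes starred, lines between classes) in each of the 5 lists (columns), coloured by the percentile of its fold enrichment within that list from 0 to 100. An empty place is a list with no peak there. Dlx3, Dlx5, Lmx1b and Pitx3 are the genes with a point in all 5 lists, and the En and Gbx rows are empty.

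Over all genes, 51.9% had a CTCF site within 5 kb, 46.8% in replicate 1 and 49.6% in replicate 2. Among the TALE genes, 9 of 12 had one (9 in replicate 1, 5 in replicate 2). The largest of them, Meis1 (chr11:18879817-19018985) and Meis2 (chr2:115863064-116065839), Hox cofactors of the proximal limb, had no CTCF site in a gene body of 139169 and 202776 bp. Among genes of similar length, 22.9% and 15.7% had none. Sites stood close outside both ends instead. Upstream of Meis1, 5740 bp from its start, CTCF reached a fold of 8.49 and 11.04 in replicates 1 and 2, with RAD21 at 6.45 in replicate 2 and 4.92 in the wild-type library. Downstream of Meis1, 2042 bp from its end, the folds were 4.54 and 5.64 for CTCF and 6.09 for RAD21 replicate 2. There was no wild-type RAD21 peak at that site. The downstream site was in the lower part of each CTCF list, at percentiles 8.54 and 20.6. RAD21 replicate 1 had no peak at either end of Meis1.

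Meis2 was flanked in the same manner, by sites that lay just beyond the 5 kb window. Downstream of it, at 7046 bp, CTCF had folds of 8.64 and 11.4, RAD21 had folds of 4.70 and 12.6 in replicates 1 and 2, and the wild-type RAD21 peak had 7.76. At this site all 5 lists held a peak. Upstream, at 5829 bp within an intron of the lincRNA gene G630016G05Rik, CTCF had 6.15 and 5.20, RAD21 replicate 2 had 6.41 and wild-type RAD21 had 6.06. The span between these summits was 215650 bp and held no other protein-coding gene start. That around Meis1 was 146950 bp and held only Meis1. None of these 4 sites held the motif at the score used. CTCF sites within 10 kb on both sides of the gene body were found for 8 of the 44 genes, against 7.41% of all protein-coding genes and 4.70% of those over 100 kb.

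Meis3 had the start-site peak described above and a second CTCF site beyond its end at 6058 bp. Pbx genes encode partners of Hox and Meis proteins. Pbx4 had a CTCF site 2130 bp downstream, with folds of 4.48 in replicate 1 and 6.67 in replicate 2 and a wild-type RAD21 peak of 3.68. Pbx2 had none within 5 kb and its nearest was at 19040 bp. Pbx3, with a body of 201686 bp, had no CTCF site in or within 5 kb of the gene, and 146515 bp separated it from the nearest. Among genes of similar length 15.96% had no CTCF site in the body. Yet RAD21 replicate 2 had 2 peaks in Pbx3 introns, of fold 5.60 at 123378 bp and 4.30 at 1460 bp from the gene start. The wild-type library had a peak of 3.64 that overlapped the former. These were the only transgenic RAD21 sites near the 44 genes that were off CTCF.

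The Irx genes form clusters of 3 on chromosomes 8 and 13, and all 6 had a CTCF site within 5 kb. Irx3, which acts in limb bud patterning, had its site 808 bp beyond its end, with the motif printed above, CTCF folds of 5.15 and 9.59, RAD21 of 4.34 in replicate 2 and 4.74 in the wild-type library. Irx5 had a site 1766 bp upstream, in an exon of the non-coding transcript Crnde, with CTCF of 6.01 in replicate 2 alone, RAD21 replicate 2 of 6.06 and wild-type RAD21 of 2.94. A second site in an Irx5 intron had CTCF of 4.76 and 6.33 and no RAD21. Irx6 had the site at 633 bp, with CTCF of 6.76 in replicate 1, RAD21 of 6.45 in replicate 2 and 4.34 in the wild-type library. Between the Irx3 and Irx5 genes, over 555557 bp, 5 CTCF sites were listed, 1 of them in both replicates. Between Irx5 and Irx6, over 298001 bp, there were 3, 2 of them in both.

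In the cluster of Irx1, Irx2 and Irx4, Irx1 had a motif-bearing site 1349 bp downstream, near the bottom of CTCF replicate 1 (fold 3.91, percentile 1.46) and in the middle of replicate 2 (7.90, percentile 53.4). RAD21 was 4.73 in replicate 2 and 4.86 in the wild-type library there. Irx2 had a site 3430 bp upstream in replicate 1 alone (5.15), with wild-type RAD21 of 4.58. Irx4 had one in its coding exon, in replicate 1 alone (5.52), with no RAD21. From Irx1 to Irx2, over 665096 bp, the single CTCF site was that of Irx2, so Irx1 stood in a CTCF-free interval of 668818 bp. It was the longest interval of the 44 genes. From Irx2 to Irx4, over 626280 bp, 4 CTCF sites were listed, each in both replicates. Without replicate 1 the site of Irx2 was lost, and the interval of Irx2 went from 14969 to 683787 bp.

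**Figure D3:**
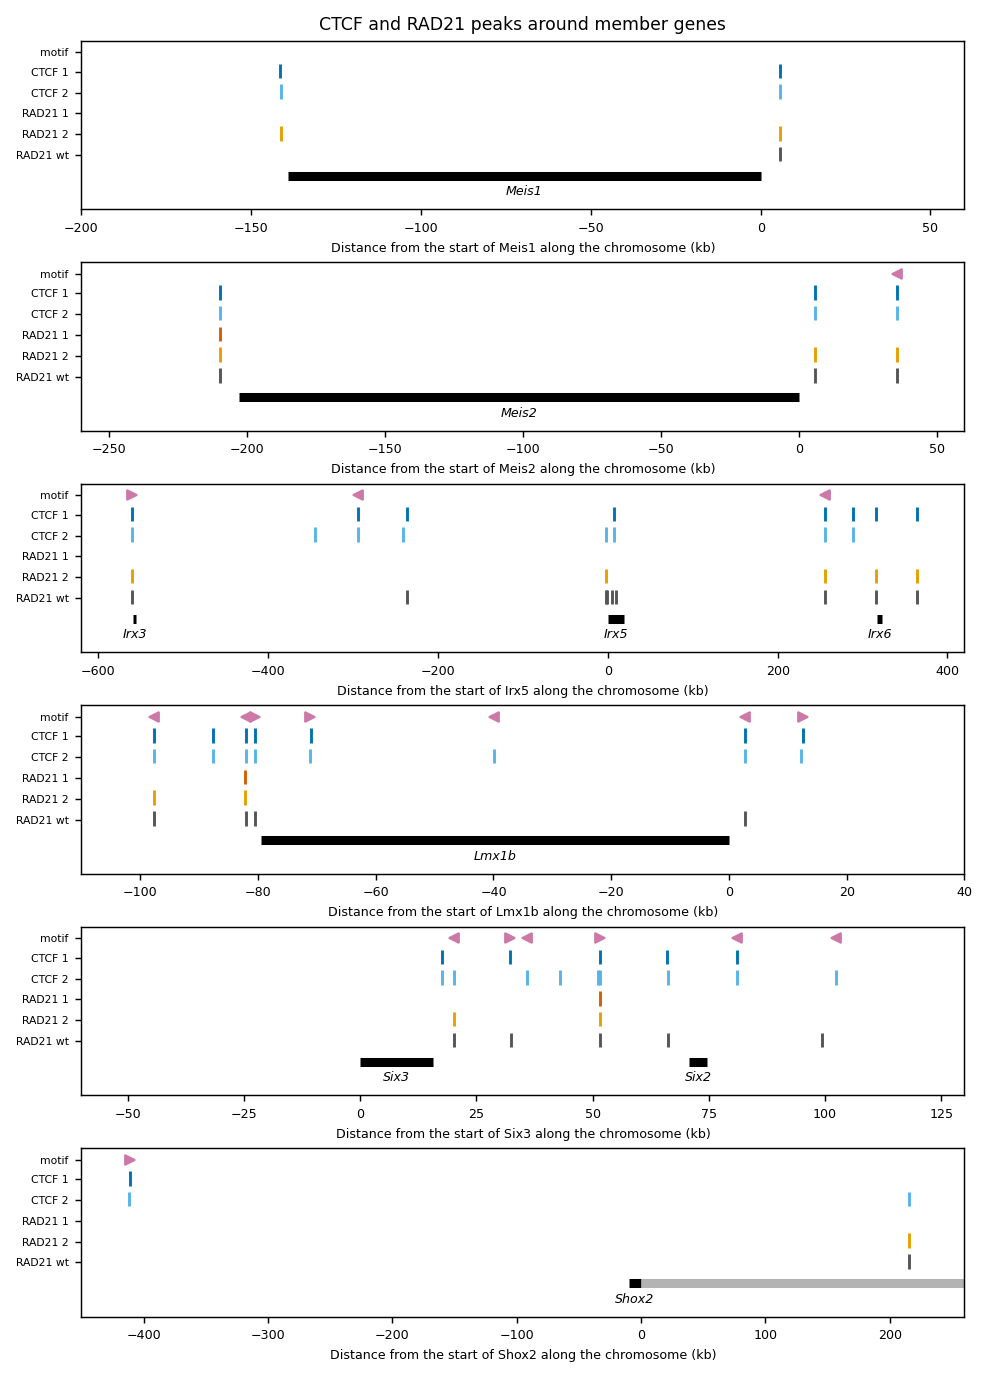
Peaks of the 5 lists (coloured ticks at the summit), CTCF motifs by strand (arrowheads: right for plus, left for minus) and protein-coding genes (black, listed genes; grey, others) around 6 loci, against the distance in kb from the start of the gene named under each axis. In the Meis1 and Meis2 panels no tick falls within the black gene bar, and the Shox2 panel holds 1 site on either side.

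Among the Dlx and Msx genes, 6 of 8 had a CTCF site within 5 kb, against 51.9% of all genes. In replicates 1 and 2 the counts were 4 and 6. The Dlx genes lie as convergent pairs, and Dlx5 and Dlx6 act in the apical ectoderm and skeleton of the limb. The site 2944 bp upstream of Dlx5 was one of the strongest of the 44 genes in the lists. CTCF had 9.37 in replicate 1 (percentile 90.4) and 8.45 in replicate 2 (percentile 60.3), RAD21 had 5.21 and 10.1, and wild-type RAD21 had 9.86, rank 713 of its list. No motif was found there at the score used. Between Dlx6 and Dlx5 the single CTCF site, in an intron of Dlx6os1, was in replicate 2 alone (4.38, percentile 3.26) and had no RAD21. This weak site cut Dlx5 off in an interval of 14476 bp. Without replicate 2 the interval was 595086 bp, and it then held both genes.

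Dlx1 and Dlx2, factors of branchial arches and forebrain, shared an interval of 175038 bp with no CTCF site between them. Without replicate 2 it measured 296856 bp. The site that ended it, 1232 bp upstream of Dlx2, had CTCF of 7.96 and 11.7, RAD21 of 9.52 in replicate 2 and wild-type RAD21 of 5.36. Dlx3 and Dlx4 likewise had none between them and shared 42097 bp (113426 bp without replicate 2). Upstream of Dlx3, which acts in ectoderm, placenta and bone, 2 motif-bearing sites stood 1425 and 2893 bp from the start. The outer had CTCF of 5.60 and 8.72, RAD21 of 8.80 and 10.7 and wild-type RAD21 of 9.18. In RAD21 replicate 1 it ranked 221, higher than any other peak near the 44 genes. The inner had CTCF of 4.57 and 6.68, RAD21 of 4.80 in replicate 2 and wild-type RAD21 of 6.80.

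Msx1 and Msx2 are targets of Bmp signals in the limb bud. Msx1 had a site 3475 bp downstream, with CTCF of 7.06 and 5.81 and wild-type RAD21 of 3.30, and no RAD21 in the transgenic limbs. Msx2 had a motif-bearing site 4831 bp downstream with CTCF in replicate 2 alone (6.26), RAD21 of 8.76 in replicate 2 and wild-type RAD21 of 8.47. At Msx2 cohesin was high in RAD21 replicate 2 and the wild-type library (percentiles 70.1 and 89.6), where CTCF replicate 2 was low (30.8). Replicate 1 listed neither protein there.

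LIM homeobox genes had a CTCF site within 5 kb in 6 of 10, against 51.9% of all genes. In replicates 1 and 2 the counts were 5 and 5. Lmx1b, which sets dorsal identity in the limb, had the 5 sites printed above. The mean percentile of its strongest CTCF peaks (85.3) was the highest, ahead of Dlx2 (82.4) and Alx4 (78.0). With 5 sites to draw from, Lmx1b could reach a higher maximum than genes with fewer. Its strongest site lay 2782 bp upstream in an exon of the antisense transcript C130021I20Rik, with CTCF of 7.98 and 13.1 and wild-type RAD21 of 6.48, and no RAD21 in the transgenic limbs. The outer downstream site had CTCF of 6.91 and 11.9, RAD21 of 4.16 and 6.76 and wild-type RAD21 of 5.93. The inner downstream site had 5.72 and 8.65 with wild-type RAD21 of 3.39. The intronic sites had 5.12 and 10.7, and 5.65 in replicate 2 alone, with no RAD21 in any list. All 5 held the motif. The gene start lay in a CTCF-free interval of 42616 bp, or 73825 bp without replicate 2, which lists the inner intronic site.

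The other LIM genes with a site carried it inside the gene. Lhx9, a limb factor, had one in an intron in replicate 2 alone (5.99) with wild-type RAD21 of 3.68. Lmx1a, which acts in roof plate and midbrain, had an intronic motif-bearing site with CTCF of 5.82 and 11.6 and wild-type RAD21 of 3.26. Lhx5 had a site in its UTR exon (7.95 and 9.33, RAD21 replicate 2 of 5.00) and Lhx8 in an intron (7.24 and 8.66, RAD21 replicate 2 of 7.48). Lhx4 had one in an intron in replicate 1 alone (4.89), among the 3 lowest mean percentiles (13.8), with Six5 (7.79) and Dlx6 (3.26). Lhx2, also a limb factor, had no site within 5 kb. At 6409 bp downstream it had CTCF of 9.15 and 12.1, RAD21 of 6.97 in replicate 2 and wild-type RAD21 of 8.02. On its other side the nearest CTCF site was 390653 bp away.

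Of the sine oculis genes, 3 of 5 had a CTCF site within 5 kb, against 51.9% of all genes. In replicates 1 and 2 the counts were 3 and 2. Six3, an eye and forebrain factor, and Six2, a kidney and head mesenchyme factor, are neighbours with 54974 bp between them, in which 7 CTCF sites were listed. Of these, 3 were in both replicates and 4 held a motif, 2 on each strand. Six3 had sites 1912 and 4552 bp downstream. The nearer had CTCF of 5.52 and 6.57 and no RAD21, and the farther had CTCF in replicate 2 alone (6.06) with RAD21 of 9.81 in replicate 2 and wild-type RAD21 of 7.39. Six2 had one 4469 bp downstream with CTCF of 4.78 and 9.89 and wild-type RAD21 of 2.42. Upstream of Six3 no CTCF site was listed for 423845 bp. Six5 had a motif-bearing site 1322 bp upstream, in the UTR exon of Dmpk, with CTCF in replicate 1 alone (4.52), RAD21 of 6.13 in replicate 2 and wild-type RAD21 of 3.90. Six4 and Six6 had none within 5 kb, and 3 CTCF sites lay in the 154709 bp between them, each in both replicates.

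Of the paired-like genes 3 of 6 had a CTCF site within 5 kb, against 51.9% of all genes. In replicates 1 and 2 the counts were 3 and 3. Alx4, which restricts the posterior signalling centre of the limb, had an intronic motif-bearing site with CTCF of 8.48 and 9.71, RAD21 of 7.78 in replicate 2 and wild-type RAD21 of 4.17. Prrx2, a limb mesenchyme factor, had 2 sites downstream whose motifs were both on the plus strand. One had CTCF of 6.25 and 6.96, the other 5.04 in replicate 2 alone, and neither carried RAD21 in any list. Pitx3, a lens and midbrain factor, had a site 207 bp beyond its end, in the UTR exon of Elovl3, with CTCF of 5.18 and 9.39, RAD21 of 6.90 and 10.5 and wild-type RAD21 of 9.72. A second Pitx3 site in a coding exon had CTCF of 6.32 and 8.60 and no RAD21. Alx1, Shox2 and Prrx1 had none. No En or Gbx gene had a site within 5 kb of CTCF or RAD21. For the limb factor En1 the nearest CTCF site was 7659 bp upstream, with folds of 6.01 and 11.4, RAD21 of 7.01 in replicate 2 and wild-type RAD21 of 5.47. For Gbx2 it was 8245 bp upstream (4.89 and 5.39), and for En2 it was 42472 bp upstream.

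Cohesin without CTCF was listed mainly in the wild-type library. Of 34 distinct wild-type RAD21 peaks near the genes, 24 overlapped a CTCF site and 10 did not (29.4%, against 18.9% of the 12911 wild-type RAD21 peaks within 5 kb of any protein-coding gene). Of 19 RAD21 sites in the transgenic limbs, 2 did not (10.5%, against 9.45% of peaks near any gene). The wild-type library comes from another experiment than the CTCF lists, and the part of this in the difference was not tested. Besides Pbx3, the genes with RAD21 but no CTCF within 5 kb were Prrx1 (wild-type fold 3.17, 117 bp inside the gene start) and Six4 (2.58, at 777 bp). Irx5 had 3 wild-type RAD21 peaks off CTCF, of 2.00, 4.43 and 2.24, Irx2 had 2 (3.79 and 2.80), and Irx1 (3.44) and Prrx2 (2.47) had 1 each. In all, 14 genes (31.8%) had neither protein within 5 kb in any list, against 44.7% of all genes and 48.7% of those of similar length, among them the limb genes En1, Lhx2, Meis2 and Shox2.

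The distance to the nearest CTCF site on the nearer side of the gene body had a median of 7034 bp over the 44 genes, from 207 bp (Meis3 and Pitx3) and 633 bp (Irx6) to 111551 bp (Alx1), 146515 bp (Pbx3) and 215652 bp (Shox2). The median for genes of similar length was 15161.5 bp. For 18 of the 44 the distance was above the median of genes of similar length, not far from an even split. Limb genes had a median of 4417 bp and the other genes 15512 bp, against 14845.2 and 15501.2 bp for genes of similar length. Sites inside a gene body, as at Alx4, Lhx5, Lhx8 and Lhx9, do not enter these distances. Without replicate 2 the median over the 44 was 15237 bp. The median for genes of similar length was not computed without replicate 2, so the difference could not be judged there. The genes just inside the window were Prrx2 (4003 bp), Six2 (4469 bp) and Msx2 (4831 bp), and the next outside were Meis2 (5829 bp), Lhx2 (6409 bp), En1 (7659 bp) and Gbx2 (8245 bp). Thus 3 of the 4 limb genes without either protein had a CTCF site with RAD21 shortly beyond it. Within 10 kb outside the body, 24 of the 44 genes and 12 of the 16 limb genes had a CTCF site, against 40.4% of all genes. Sites inside the body were not counted here, unlike in the counts within 5 kb.

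RAD21 followed at larger distances. In the transgenic limbs the nearer site had a median distance of 19183 bp, against 35154.5 bp for genes of similar length, and 7024.5 bp for limb genes. It ranged from 165 bp (Pitx3) to 526358 bp (Irx2). For the wild-type library the median was 10230 bp, against 25111.5 bp. From replicate 1 alone the transgenic median was 101402 bp.

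**Figure D4:**
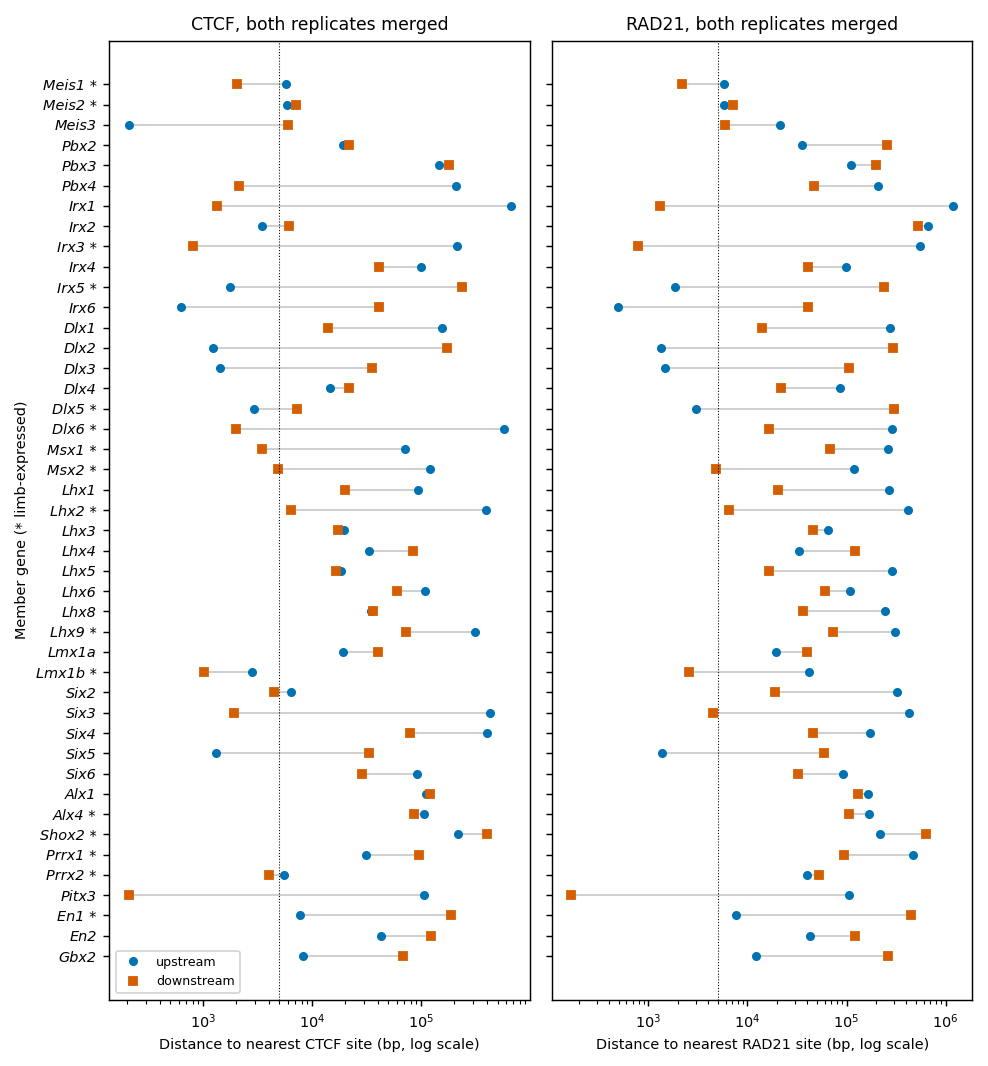
Distance in bp (logarithmic axis) from the gene body to the nearest CTCF site (left panel) and RAD21 site of the transgenic limbs (right panel), upstream (blue circles) and downstream (orange squares), for the 44 genes with limb-expressed genes starred. The dotted line marks 5000 bp, and a grey bar joins the sides of a gene. Meis1, Meis2 and Prrx2 have both CTCF points between 2042 and 7046 bp, while the nearer point of Shox2 is at 215652 bp.

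On the farther side of the gene body the nearest CTCF site had a median distance of 93888 bp, against 61888.5 bp for genes of similar length. The CTCF-free interval around the gene start had a median of 121180 bp, against 81660.5 bp for genes of similar length. It ran from 8777 bp (Irx5, 243166 bp without replicate 2) to 668818 bp (Irx1). In 26 of the 44 the interval was longer than the median of genes of similar length. As many of those genes lie above their median as below it, and 26 is not far from such an even split. The nearest other protein-coding gene was also farther, with a median gap of 16389.5 bp against 4190.5 bp. The part of this spacing in the interval lengths was not tested. In 24 of the 44 genes, 10 of them limb genes, no other protein-coding gene start shared the interval, against 34.3% of all genes and 31.0% of those of similar length. An interval above 200 kb was found for 13 genes (29.5%), close to the 26.2% of all genes. Shox2 had the widest surroundings of the limb genes, with 626905 bp between the flanking sites. The nearer of them, 215652 bp upstream, was listed in CTCF replicate 2 and not in replicate 1. Without replicate 1 the interval grew by more than 1.5 times for 4 genes and without replicate 2 for 10 genes.

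The flanking motifs pointed toward each other around 22 of the 44 genes (50%), against 26.9% of all protein-coding genes. For this the nearest CTCF site with a motif was taken on each side of the gene body, which was often not the nearest CTCF site. The motifs pointed the same way around 15 genes and away from each other around 7. In all genes the corresponding shares were 46.1% and 26.4%. Genes of similar length had 26.2% convergent pairs and genes with a similar distance between the motifs had 27.6%. Some neighbours shared a pair, and over the 42 distinct pairs 21 were convergent, against 28.3% of the 11888 distinct pairs of all genes. The count was 20 with a stricter motif score (27.3% of all genes), 18 with -log10 q of at least 10 (25.8%) and 22 with sites in both replicates (25.3%). No test was made, since the pairs are not replicates.

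Of the 16 limb genes, 7 had convergent flanks, among them Meis1, Meis2, Irx3, Dlx6, Lhx9 and Lmx1b. In the limb group 5 pairs were tandem and 4 divergent, and of the other 28 genes 15 had convergent flanks. The pair around Lmx1b was 83337 bp apart and that around Irx3 was 265820 bp apart. For Irx3 the downstream motif was its own site at 808 bp and the upstream one, 261470 bp away, had CTCF of 7.12 and 7.27 with no RAD21 in any list. For Meis2 the pair was 1478913 bp apart and for Meis1 1609288 bp. The motif-bearing site 727837 bp downstream of Meis1 had CTCF of 4.76 and 5.64 and RAD21 of 7.78 and 10.2 in replicates 1 and 2. The one 742283 bp upstream had CTCF of 6.58 and 10.1 and RAD21 of 9.20 in replicate 2 alone. Of all 79 distinct flanking motif sites, 56 were in both CTCF replicates, 46 carried RAD21 of the transgenic limbs and 58 carried wild-type RAD21 (70.9%, 58.2% and 73.4%). Over all motif-bearing CTCF sites the shares were 77.4%, 51.3% and 63.0%.

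**Figure D5:**
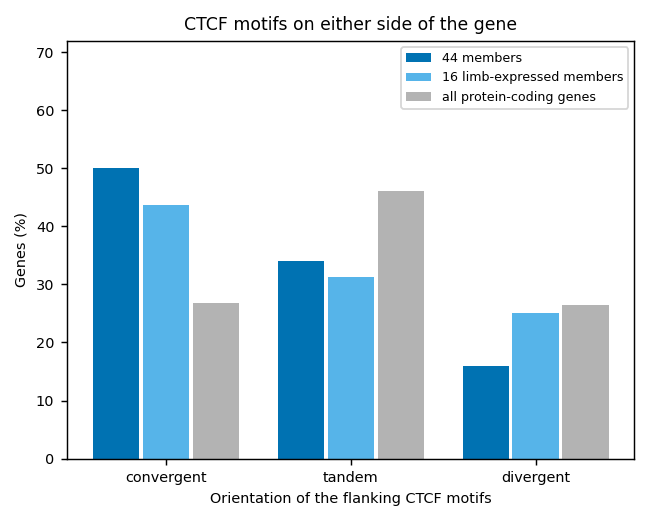
Percent of genes (vertical axis) whose nearest motif-bearing CTCF sites on the left and right point toward each other (convergent), the same way (tandem) or away from each other (divergent), for the 44 homeobox genes, the 16 limb-expressed among them and all protein-coding genes. The convergent bar stands at 50% for the 44 genes, 43.8% for the limb genes and 26.9% for all genes.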

How the data were processed

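CTCF and RAD21 were profiled by ChIPmentation. The authors aligned 50 bp single-end reads to mm10, and MACS2 was run by them with default parameters for each replicate separately. MACS2 2.1.1.20160309, Bowtie2 2.3.4.1 and cutadapt 1.16 are named in the submitters' processing notes. The deposited values of a peak are its fold enrichment (a ratio, the summit pileup over the local background), -log10 of the p-value and -log10 of the q-value. Read numbers are not given in the sources used here, so the depth and the precision of a fold are unknown, and folds were compared only within a list or given side by side.

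From these lists peaks were ranked by fold and assigned to genes of GENCODE M21 within 5 kb of the gene body. Distances to the nearest site run from the gene edge to a summit outside the gene body, and sites inside the body are passed over. Sites with a motif were found with a position weight matrix of 19 bp, learned from 2000 peaks of CTCF replicate 2 on chromosomes without a listed gene, and the search and the window counts were tested on simulated data. Genes of similar length are within a factor of 1.5 of each listed gene, which were left out, and their shares are means over the 44. The genes named are the limb group, the clusters, the extremes of percentile and distance, and genes with RAD21 and no CTCF. Others were named after their values were seen. The genes, lists and rules were chosen with earlier results of these data known. No test was made: the lists hold no counts and there is 1 genotype. Lists on the custom genome were used as an alternative only, and input libraries were not used here. Sequences are from GRCm38, and those of some sites are not reported here. Python 3.11.15, numpy 2.4.6, pandas 2.3.3, pysam 0.24.0 and matplotlib 3.10.9 were used.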

Additional observations from a re-analysis of the deposited data

How the results depend on the processing

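With only peaks of -log10 q of at least 10, a CTCF site was within 5 kb of 12 genes (4 of the limb group), a RAD21 site of 6 and a CTCF site with RAD21 of 4, none was within 1 kb of a gene start (0 genes), and the median distance to CTCF was 23827 bp. With a window of 1 kb the counts were 13 genes for CTCF (5 of the limb group), 7 for RAD21, 15 for wild-type RAD21 and 6 for CTCF with RAD21. With 20 kb a CTCF site was near 35 genes (79.5%, against 70.0% of all genes) and a wild-type RAD21 peak near 34 (77.3%, against 59.7%). RAD21 was near 27 (61.4%, against 51.1%) and CTCF with RAD21 near 25 (56.8%, against 48.5%). At this width all these shares were above those of all genes. With a peak required in both replicates, 18 genes had CTCF, 4 had RAD21, 4 had CTCF with RAD21 and 0 had CTCF at the start. Leaving out a replicate in turn gave 4 to 17 genes with RAD21, 4 to 14 with CTCF and RAD21, and 0 to 2 with CTCF at the start. The median distance was 7952 to 15237 bp for CTCF and 19179.5 to 101402 bp for RAD21. Under the strictest q and within 1 kb, the shares for CTCF, RAD21 and CTCF with RAD21 were below those of all genes. In both replicates the share for CTCF was below (40.9% against 44.1%). Those for RAD21 (9.09% against 9.47%) and CTCF with RAD21 (9.09% against 9.13%) were close to those of all genes. These settings change the peaks or bases that count, and no further cause was tested. The convergent count stayed between 18 and 24, the highest with the motif searched within 100 bp of the summit, an alternative chosen after seeing the data. On the custom genome, 22 of the 33 genes off chromosomes 2 and 10 had a CTCF site, against 23 on mm10. Ranking by q moved the percentile of the 27 genes with CTCF by a median of 3.40 and at most 16.7. No paired analysis was possible because no result comes from a test, and nothing states whether CTCF and RAD21 replicates of the same number share embryos.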
